A study of Sus scrofa with 36 samples.

Results

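The heat response of the adrenal glands was described here in Creole pigs, a local breed of the Caribbean, from 12 of the 36 arrays of the series. The members were chosen by their titles, which give breed and temperature, so that 6 Creole pigs under heat stress (HS) were compared with 6 Creole pigs under thermoneutral conditions (TN). All 12 were castrated males, and each array holds the RNA of 1 pig, from a powder of the adrenal glands. The TN pigs stayed at 24 °C until slaughter, and the HS pigs were killed later, after up to 5 days of heat. The protocol gives 32 °C for the heat and the sample labels give 30 °C. The other 24 arrays are from Large White pigs and from Large White × Creole pigs (the cross) under the same temperatures.

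Because the HS pigs were always slaughtered later than the TN pigs, temperature cannot be told apart from the day of slaughter, the age and the time in the climatic room. The labels hold no pen, slaughter day or parents, so none of these could enter a fit. The paper states that the pigs of each breed came in blocks of littermates, so the p-values treat siblings as independent pigs.

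The adrenal cortex makes glucocorticoids and mineralocorticoids from cholesterol under the control of ACTH and angiotensin, and the medulla holds chromaffin cells that make catecholamines and neuropeptides. Heat acts on cells through heat shock factors, which drive the genes of the HSP chaperones, and an animal that acclimates to heat lowers its own heat production, feed intake and thyroid and adrenal activity. Amphiregulin (AREG) is a ligand of the EGF receptor, DUSP1 is a phosphatase that switches off MAP kinases, and NR0B1 (DAX1) is a nuclear receptor that represses steroid synthesis.

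Several probes of the array stand for the same gene, and they are not always separate measurements. The sequences of the probes of AREG, NR0B1 and DDIT3 are shown because each of these genes has probes that share bases and a probe that does not. Each line gives the first 30 of the 60 bases of a probe as the deposited scanner files hold them, and capitals mark the bases that lie in a run of at least 15 bases shared with another probe of the same gene.
AREG probe 1: GTGGATCATAAGAAGACAGAACCTTTTTGT
AREG probe 2: GTGGATCATAAGAAGACAGAACCTTTTTGT
AREG probe 3: GATCATAAGAAGACAGAACCTTTTTGTTCT
AREG probe 4: tgaagaacgaaagaaacttcgacaagaaaa
NR0B1 probe 1: CCCAAGTACAGGAGCTGTGAGCAGAAGAGT
NR0B1 probe 2: CCCAAGTACAGGAGCTGTGAGCAGAAGAGT
NR0B1 probe 3: ttgttttgcgctcatgagcatgttgtagag
DDIT3 probe 1: ATGAAAATGGGGGTAACTATGTCTCACCCC
DDIT3 probe 2: ggaaagggtctcagtatgtatatagagaga
DDIT3 probe 3: ATGAAAATGGGGGTAACTATGTCTCACCCC

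Probes 1 and 2 of AREG are the same 60 bases under different probe names, and probe 3 shares 57 bases with them. Probe 4 of AREG shares no such run, so the 4 probes read 2 separate stretches of the transcript. Probes 1 and 2 of NR0B1, and probes 1 and 3 of DDIT3, are likewise 1 sequence each.

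The values are log2 of a quantile normalized intensity, so that a difference of 1 is a 2-fold difference in signal. The table holds 45348 probes, of which 22741 could be named, for 10406 genes. A gene's level is the mean over its probes, and levels are compared between pigs and never between genes. Between 43585 and 47583 probes were well above background on the HS arrays and between 43652 and 46707 on the TN arrays (exact permutation test, two-sided, p = 0.887, n = 6 and 6). Correlations between the Creole arrays lay between 0.985 and 0.994. In whole glands, fewer cells of a type and less RNA per cell cannot be told apart. Markers of cortex (STAR, CYP11A1, CYP17A1, CYP21A2, HSD3B1, MC2R) and of medulla (DBH, PNMT, CHGA, CHGB) were well above background on all 12 arrays, with differences between -0.19 and 0.07. NR5A1, also a marker of cortex, was well above background on all 12 and differed by -0.25 (unadjusted p = 0.0120 in limma). Of the markers of skeletal muscle, ACTA1 and CKM were well above background on all 12 arrays, with differences of -0.01 and -0.11, and MYH1 on 0 of 12. Of the markers of kidney tubule, AQP2 was well above background on 12 arrays, CUBN on 11, CALB1 on 9 and SLC12A1 on 0.

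HS pig 2 stood apart from the others. Of 27 listed genes of the exocrine pancreas, which makes digestive enzymes, 11 had a probe, and all 11 were highest in HS pig 2. Their mean level was 14.77 in that pig and between 6.96 and 7.61 in the other 11 Creole pigs. The colipase gene CLPS stood at 16.49 in HS pig 2 and between 7.56 and 8.14 in the other 11, and the carboxypeptidase gene CPA1 at 15.40 against 6.63 to 7.85. The pigs of the other breeds stayed between 7.53 and 8.27 for CLPS and between 6.70 and 7.92 for CPA1. The list was written after the largest differences had been seen. Results that rest on HS pig 2 are given with and without it.

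No probe and no gene differed between HS and TN pigs past an adjusted p of 0.05 in limma. Of the 45348 probes, 0 (0%) passed, with a lowest adjusted p of 1.00, and of the 10406 genes 0 (0%) passed, with a lowest adjusted p of 0.672. An unadjusted p under 0.05 was reached by 1802 probes (3.97%), of which 893 (1.97%) were higher and 909 (2%) lower in HS pigs. For genes the count was 451 (4.33%), with 227 higher (2.18%) and 224 lower (2.15%). Both counts are below the 2267.4 probes and 520.3 genes that an even spread of p-values gives. No gene named here is therefore said to have changed, and what follows is the size and direction of the differences with their error.

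Most differences were small and balanced in direction. The median size was 0.069 over probes and 0.061 over genes, and 1 probe in 100 differed by more than 0.51. Lower in HS pigs were 49.9% of probes and 48.5% of genes. All 6 HS pigs stood above all 6 TN pigs for 45 probes (0.0992%) and 14 genes (0.135%), and below them for 34 probes (0.075%) and 6 genes (0.0577%).

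**Figure D1:**
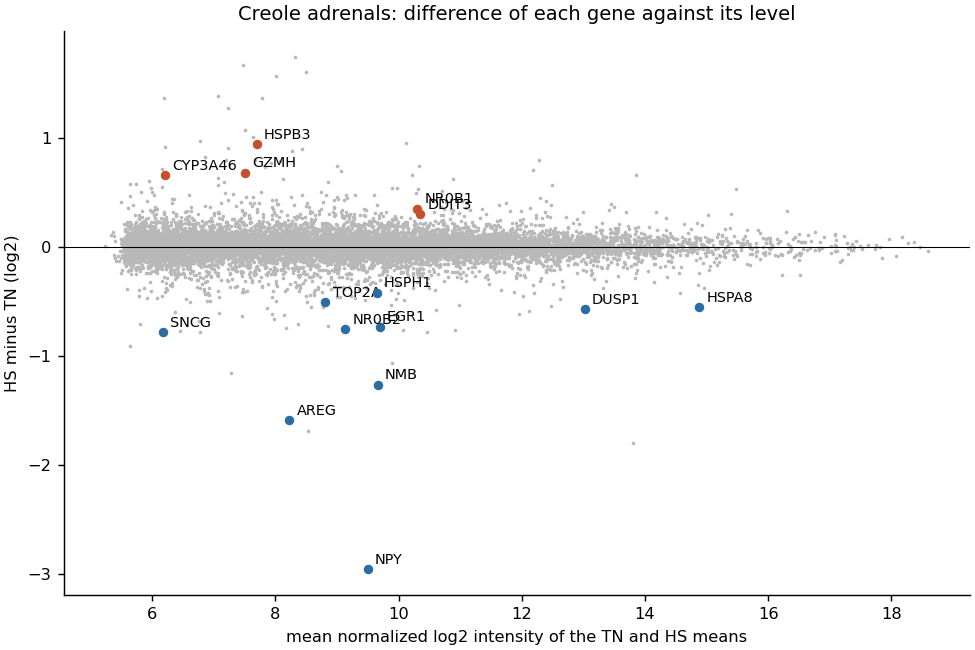
HS minus TN in Creole pigs (log2, vertical axis) against the mean log2 level over the 12 pigs (horizontal axis), 1 point for each of 10406 genes, with 15 genes labelled. Most points lie close to 0, AREG and NPY lie far below, and genes of digestive enzymes lie far above because of HS pig 2.

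Of the 10406 genes, 17 differed by more than 1, with 10 higher and 7 lower in HS pigs. Without HS pig 2 there were 16, with 6 higher and 10 lower, so that the balance of directions turned. Among the 10 higher, 9 were genes of the exocrine pancreas (CELA2A, CEL, CPB1, CPA1, PNLIP, GP2, CELA1, CLPS and PLA2G1B), at 1.00 to 1.66 with unadjusted p-values of 0.228 to 0.346 in limma. Without HS pig 2 these 9 lay between -0.10 and 0.19. The tenth, TOR3A, differed by 1.74 (unadjusted p = 0.317 in limma) on 1 probe whose values were either under 6 or above 11 in both groups, and by 2.57 (unadjusted p = 0.142) without HS pig 2. All 7 lower genes were also lower by more than 1 without that pig. New among the 16 were AMOTL2 (1.22), ARHGAP4 (1.17), INSL3 (1.13), CYP19A3 (1.13) and CXCL9 (1.05), which were higher, and CRABP1 (-1.23), SST (-1.08) and FABP7 (-1.03), which were lower, with unadjusted p-values of 0.0343 to 0.274 in limma. The pancreas genes, TOR3A, the genes new among the 16, and DLL3, MYOT, PRPH and GNG3, which are also among the 17, lie outside the rule for named genes and were picked after their values were seen.

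AREG gave the lowest unadjusted p of the 10406 genes. It lies on chromosome 8 at 70417935 to 70428106 of RefSeq Sscrofa11.1. Its level in TN pigs 1 to 6 was 9.20, 8.33, 8.78, 8.36, 9.94 and 9.53, and in HS pigs 1 to 6 it was 7.55, 8.22, 7.74, 7.10, 7.18 and 6.78. Every HS pig stood below every TN pig, with the smallest gap between HS pig 2 and TN pig 2. The means were 9.02 ± 0.65 in TN and 7.43 ± 0.52 in HS (SD, n = 6 each), a difference of -1.59 with an SE of 0.30, an unadjusted p of 0.000148 and an adjusted p of 0.672 in limma. The 4 probes gave -1.69, -1.69, -1.64 and -1.36. The separate stretch, probe 4, thus had the smallest difference, and its groups overlapped.

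The arrays were hybridised on 5 slides, and slides 2 to 5 hold pigs of both groups. Within these slides the difference of AREG was -0.55, -0.83, -2.84 and -2.55, and with slide as a block it was -1.61 (unadjusted p = 0.00219 in limma). The direction within a slide could not differ, since every HS pig lay below every TN pig, and the sizes differed widely. Each of these values rests on few pigs, and the only Creole pigs on slide 4 are TN pig 5 and HS pig 4. In Large White pigs AREG differed by -0.88 and in the cross by -1.93, and the Creole difference minus the mean of the other breeds was -0.19 (unadjusted p = 0.709 in limma).

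The list of the EGF receptor family and its ligands stood near 0 at its median. Of 14 measured genes of this list 10 were lower, with a median of -0.03 against 0.00 over all genes, and AREG alone had an unadjusted p under 0.05 (2.15% of all genes were lower at that p). The receptor EGFR itself differed by 0.00 and the protease ADAM17, which releases such ligands from the membrane, by -0.10. The ligand TGFA differed by -0.20, with all 6 probes lower (unadjusted p = 0.0766 in limma).

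**Figure D2:**
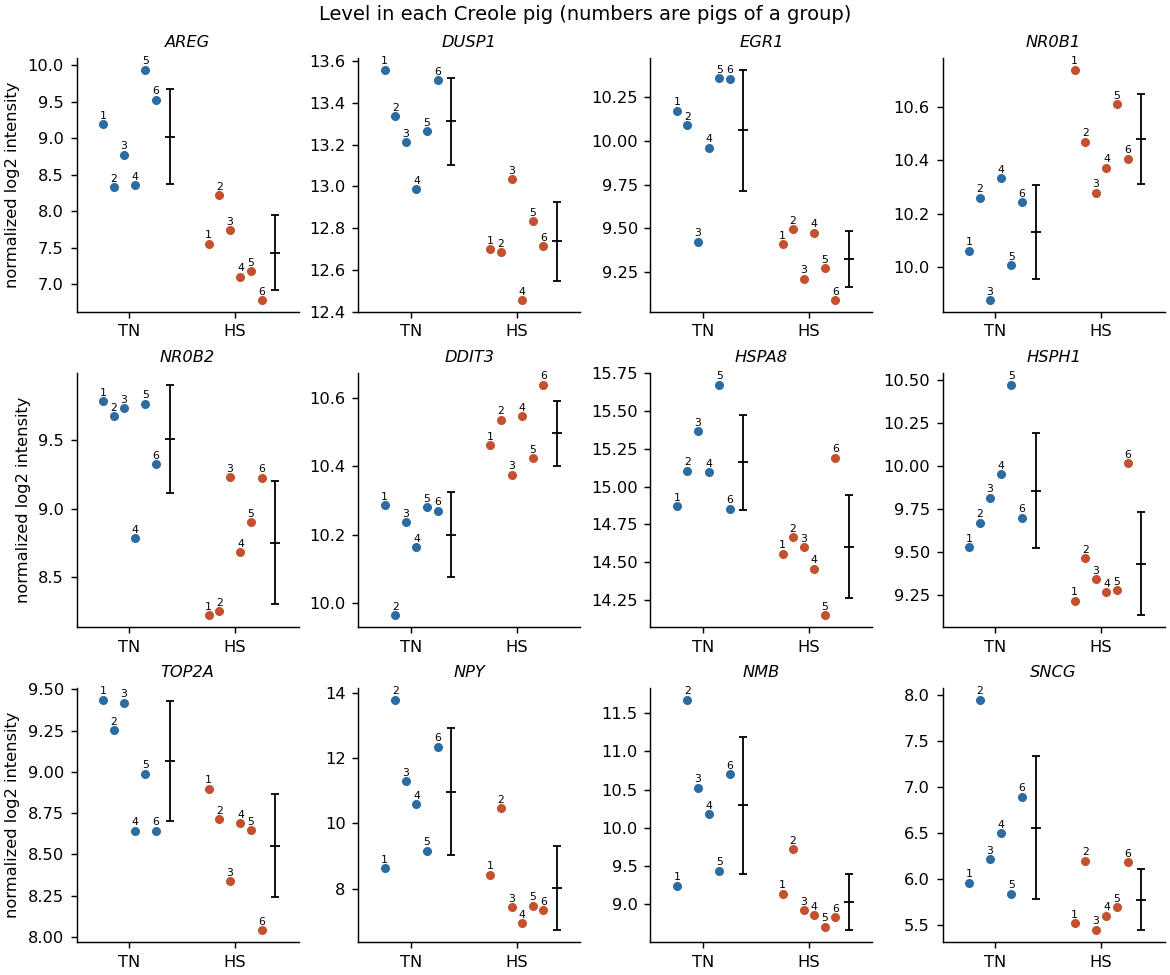
Level of 12 genes (log2, vertical axis) in each TN and HS Creole pig, with the number of the pig beside its point and bars for the mean ± SD of 6 pigs. AREG does not overlap between groups, DDIT3 is higher in every HS pig than in any TN pig, and HSPA8 and HSPH1 of HS pig 6 lie among the TN pigs.

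Immediate-early genes, which are switched on within minutes by hormones, growth factors and stress, were mostly lower in HS pigs. Of 26 measured genes 20 were lower, with a median of -0.11 against 0.00 over all genes. At an unadjusted p under 0.05 there were 6 lower (DUSP1, EGR1, JUN, IER3, EGR3 and KLF4) and 0 higher, where 2.15% of all genes were lower at that p, and 0 passed the adjusted p. Leaving out each pig in turn moved this median between -0.20 and -0.07. It moved the count of lower genes at an unadjusted p under 0.05 between 4 and 8.

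DUSP1 stood at 13.56, 13.34, 13.21, 12.99, 13.26 and 13.51 in TN pigs 1 to 6 and at 12.70, 12.68, 13.03, 12.45, 12.83 and 12.71 in HS pigs 1 to 6. The groups overlapped by HS pig 3 alone, which lay just above TN pig 4. The difference was -0.57 with an SE of 0.11 (unadjusted p = 0.000154, adjusted p = 0.672 in limma), and both probes, at -0.61 and -0.54, had the same direction. Within slides 2 to 5 it was -0.77, -0.06, -0.81 and -0.73, and -0.58 with slide as a block. DUSP1 differed by -0.62 in Large White pigs and by -0.42 in the cross.

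EGR1, a zinc finger transcription factor, had 1 probe. It stood at 10.17, 10.09, 9.42, 9.96, 10.36 and 10.36 in TN pigs 1 to 6 and at 9.41, 9.49, 9.21, 9.47, 9.27 and 9.09 in HS pigs 1 to 6. TN pig 3, at 9.42, lay within the HS range, and the other 5 TN pigs lay above all HS pigs. The difference was -0.74 with an SE of 0.14 (adjusted p = 0.672 in limma). Without TN pig 3 it was -0.86 and passed the adjusted p, at 0.0145, as the single gene to do so under any alternative. With slide as a block it was -0.79, and within slides 2 to 5 it was -0.64, -0.48, -0.89 and -1.18.

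JUN, a subunit of the AP-1 factor, differed by -0.35 and IER3, which acts on cell survival, by -0.64, where TN pig 5 stood above the other TN pigs. FOS, the partner of JUN, differed by -0.35 (unadjusted p = 0.116 in limma) and NR4A1, which acts on steroid enzyme genes, by -0.26 (unadjusted p = 0.0888).

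Targets that glucocorticoids induce through their receptor were described by 21 genes. Of these 13 were lower, with a median of -0.06, and 4 were lower at an unadjusted p under 0.05, namely DUSP1, CEBPD (-0.30), SGK1 (-0.39) and DDIT4 (-0.25), against 2.15% of all genes. DUSP1 is also a member of the immediate-early list. FKBP5, the cochaperone that dampens the receptor, differed by -0.16 and PER1, a clock gene that glucocorticoids induce, by -0.22, both with an unadjusted p above 0.05. The receptor gene NR3C1 differed by 0.05.

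The genes of steroid synthesis themselves did not differ beyond the spread between pigs. STAR, which brings cholesterol into mitochondria, differed by 0.02, CYP11A1, the side-chain cleavage enzyme, by 0.00, CYP17A1 by 0.05, CYP21A2 by 0.02 and HSD3B1 by 0.03. The ACTH receptor MC2R differed by 0.07. Over the 26 measured genes of the list 19 were higher, with a median of 0.02, and 3 had an unadjusted p under 0.05, which 4.33% of all genes reached. All 3 are nuclear receptors.

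NR0B1 was higher, at 10.06, 10.26, 9.88, 10.33, 10.01 and 10.24 in TN pigs 1 to 6 and 10.74, 10.47, 10.28, 10.37, 10.61 and 10.41 in HS pigs 1 to 6. Only HS pig 3 lay within the TN range. The difference was 0.35 with an SE of 0.10 (unadjusted p = 0.00304, adjusted p = 0.997 in limma), within slides 2 to 5 it was 0.31, 0.17, 0.36 and 0.26, and with slide as a block 0.27. Its identical probes gave 0.45 and 0.44, and probe 3, whose level near 7.1 was much dimmer, gave 0.15 (unadjusted p = 0.226 in limma). The gene lies on chromosome X at 26117874 to 26122951.

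NR0B2 (SHP), a related repressor, was lower by -0.76 with an SE of 0.22 (unadjusted p = 0.00419, adjusted p = 0.997 in limma). Its TN pigs stood between 8.79 and 9.79 and its HS pigs between 8.22 and 9.23, and TN pig 4 was the only TN pig inside the HS range. NR5A1 (SF-1), the factor that drives the genes of steroid synthesis, differed by -0.25 (unadjusted p = 0.0120), with all 4 probes between -0.30 and -0.15. In Large White pigs and in the cross, NR0B1 differed by 0.22 and 0.39, NR0B2 by -0.55 and -0.90 and NR5A1 by -0.11 and -0.28.

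Cholesterol synthesis and uptake gave no common direction, with 12 of 25 genes higher and a median of -0.03. The synthesis enzyme FDFT1 differed by 0.36 with an SE of 0.21 (unadjusted p = 0.107 in limma). Its TN pigs stood between 12.85 and 13.81 and its HS pigs between 13.01 and 14.27, so that the groups overlapped widely.

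Chaperones of the HSP70, HSP90 and HSP40 families, which include members of the endoplasmic reticulum and mitochondria, had medians near 0 in all 3 lists. Of 13 measured HSP70 and HSP110 genes 6 were lower, with a median of 0.01, of 16 genes of HSP90 and its cochaperones 8 were lower, with a median of 0.00, and of 24 HSP40 genes 13 were lower, with a median of -0.01. Over these 3 lists 4 genes were lower and 0 higher at an unadjusted p under 0.05 (HSPA8, HSPH1, BAG3 and DNAJB1), where 2.15% of all genes were lower at that p, and 0 passed the adjusted p. The mean over the HSP70 and HSP110 list, which holds HSPA8 and HSPH1, stood between 9.25 and 9.44 in TN pigs, between 9.17 and 9.23 in HS pigs 1 to 5 and at 9.44 in HS pig 6. The means of the other 2 lists overlapped between the groups.

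HSPA8, the constitutive HSP70, stood at 14.87, 15.10, 15.37, 15.09, 15.67 and 14.86 in TN pigs 1 to 6. In HS pigs 1 to 6 it stood at 14.56, 14.66, 14.60, 14.46, 14.15 and 15.19. HS pig 6 lay among the TN pigs and the other 5 HS pigs lay below all of them. The difference was -0.56 with an SE of 0.17 (unadjusted p = 0.00621, adjusted p = 0.997 in limma), and without HS pig 6 it was -0.68 (unadjusted p = 0.000682). Within slides 2 to 5 it was -0.32, -0.63, -1.22 and -0.18, and with slide as a block -0.55.

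HSPH1, an HSP110 that recharges HSP70, stood at 10.02 in HS pig 6, among the TN pigs, and between 9.22 and 9.46 in the other HS pigs, below all TN pigs. It differed by -0.42 with an SE of 0.17, and by -0.54 without HS pig 6. Its 4 probes read 4 separate stretches, and all were lower, between -0.56 and -0.23. DNAJB1, a cofactor of HSP70, differed by -0.26, and by -0.35 without HS pig 6. BAG3 differed by -0.17, with all 6 probes lower. In the cross, HSPA8 differed by -0.77 and HSPH1 by -0.61, and in Large White pigs by -0.49 and -0.36.

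Small HSPs and chaperonins, with the collagen chaperone SERPINH1, had 9 of 17 genes higher and a median of 0.01. HSPB3, a small HSP of muscle, had 1 probe and differed by 0.94 with an SE of 0.34 (unadjusted p = 0.0168, adjusted p = 0.997 in limma), and 3 HS pigs lay above the TN range. HSPD1 and HSPE1, the mitochondrial chaperonin pair, differed by 0.13 and 0.10. All 21 probes of HSPD1 were higher, between 0.03 and 0.19, with an unadjusted p of 0.0754 for their mean.

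The unfolded protein response, by which the endoplasmic reticulum raises its chaperones, had 18 of 24 genes higher with a median of 0.05. DDIT3 (CHOP), its proapoptotic factor, was the only member with an unadjusted p under 0.05. It stood at 10.29, 9.96, 10.24, 10.16, 10.28 and 10.27 in TN pigs 1 to 6 and at 10.46, 10.54, 10.38, 10.55, 10.42 and 10.64 in HS pigs 1 to 6. Every HS pig lay above every TN pig, though the gap between HS pig 3 and TN pig 1 was under 0.1. The difference was 0.30 with an SE of 0.07 (unadjusted p = 0.000819, adjusted p = 0.997 in limma), with 0.33, 0.30 and 0.27 for its 3 probes. Within slides 2 to 5 it was 0.41, 0.18, 0.27 and 0.26, and with slide as a block 0.28. Since the groups did not overlap, the direction within a slide could not differ. HSPA5 (BiP), ATF4 and XBP1, also of this response, differed by 0.05, -0.03 and 0.07.

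Genes of the cell cycle and DNA replication were lower in HS pigs for most members of their list. Of 28 measured genes 25 were lower, with a median of -0.20 against 0.00 over all genes. At an unadjusted p under 0.05 there were 11 lower genes (39.3% of the list, where 2.15% of all genes were lower at that p) and 0 higher, and 0 passed the adjusted p. The 11 were TPX2, TOP2A, CENPF, AURKB, CKS2, CDK1, CCNB1, UBE2C, BUB1, BIRC5 and RRM2, of which most act in mitosis. Such genes are known to vary together with the share of dividing cells, so they are not separate observations.

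TPX2, a spindle factor, differed by -0.47 with an SE of 0.12 (unadjusted p = 0.00211 in limma), and TOP2A, a topoisomerase of dividing cells, by -0.51 with an SE of 0.18 (unadjusted p = 0.0124). TOP2A stood between 8.64 and 9.44 in TN pigs and between 8.04 and 8.90 in HS pigs, and TN pigs 4 and 6 lay within the HS range. The mean over the list stood between 7.98 and 8.40 in TN pigs and between 7.84 and 8.08 in HS pigs, so that TN pigs 4 and 6 overlapped with HS. Leaving out each pig in turn moved the median of the list between -0.23 and -0.16 and the count of lower genes at an unadjusted p under 0.05 between 3 and 13, with 3 without TN pig 3 and 4 without TN pig 1 or HS pig 6. With slide as a block the median was -0.14 and the count was 5. The median of the same list was -0.12 in Large White pigs and -0.18 in the cross.

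Growth arrest and p53 targets had 15 of 27 genes lower, with a median of -0.06. GADD45A, a stress-induced arrest gene, differed by -0.49 with an SE of 0.15 (unadjusted p = 0.00702 in limma), and with slide as a fixed block by -0.31. Its 3 probes share 1 stretch. HS pig 1, at 9.18, was the lowest. BAX, a proapoptotic gene, differed by -0.39 in Creole pigs (-0.23 with its brightest probe alone), by 0.50 in Large White pigs and by 0.04 in the cross. The Creole difference minus the mean of the others was -0.66 for BAX (unadjusted p = 0.000477, which did not pass adjustment over all genes in limma).

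**Figure D3:**
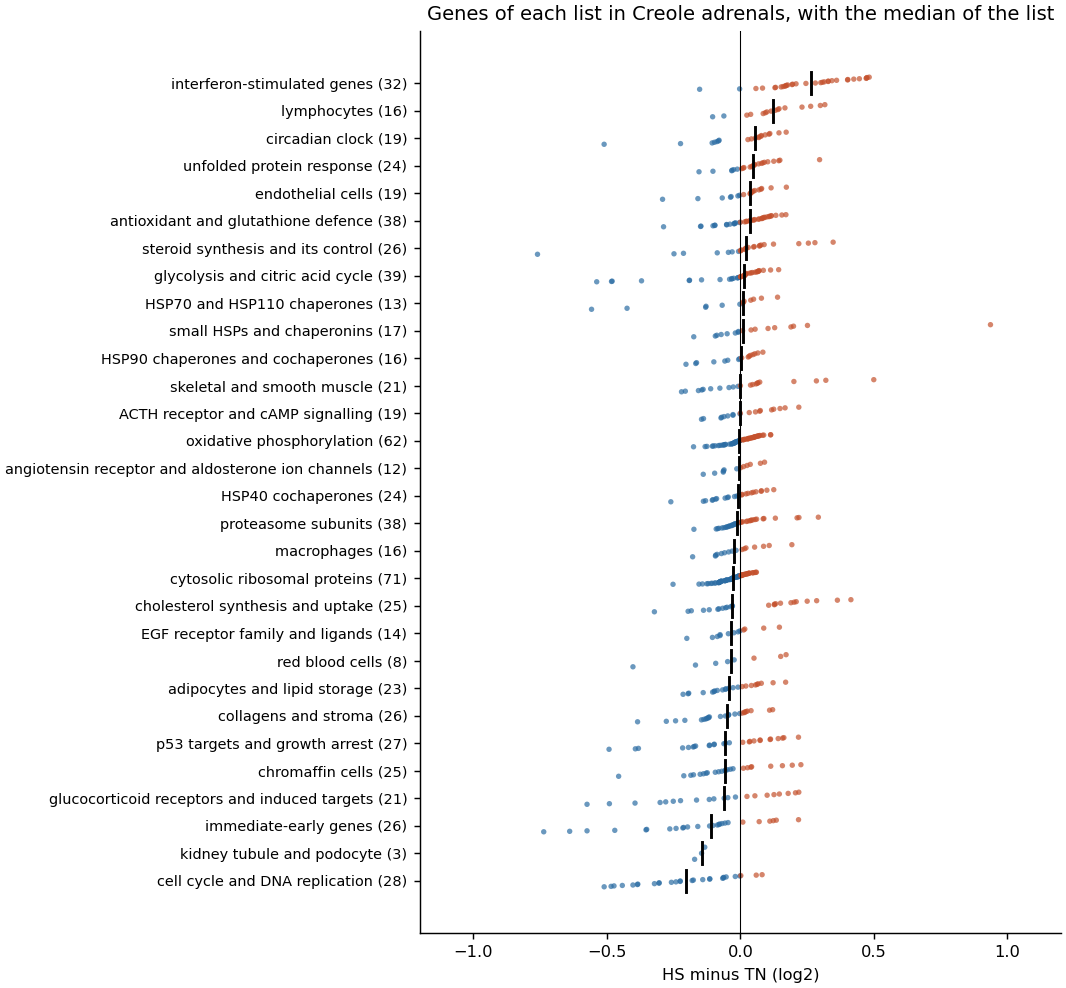
HS minus TN (log2, horizontal axis) of each measured member of 30 gene lists in Creole pigs, 1 point per gene, with a line at the median of the list. The cell cycle list lies left of 0 with a median of -0.20, the interferon list right of 0 with a median of 0.26, and most other medians lie within 0.1 of 0 (NPY and AREG lie beyond the axis).

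Interferon-stimulated genes, which cells raise against viruses, were higher in HS pigs on average. Of 32 measured genes 30 were higher, with a median of 0.26 against 0.00 over all genes, and 1, DDX58 (RIG-I, a sensor of viral RNA), had an unadjusted p under 0.05 (2.18% of all genes were higher at that p). DDX58 differed by 0.40 with an SE of 0.13. ISG15 differed by 0.45, IFIT1 by 0.47 and MX1 by 0.34, with unadjusted p-values of 0.312, 0.0954 and 0.368 in limma.

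The mean over the interferon list showed that the HS pigs did not move as a group. HS pigs 1, 3 and 4 stood at 9.99, 9.87 and 9.81, above all TN pigs, which lay between 9.02 and 9.61. HS pig 2 stood at 9.33 and HS pigs 5 and 6 at 9.01 and 8.87, below all TN pigs. Without HS pig 6 the median was 0.39 and 11 genes were higher at an unadjusted p under 0.05, without HS pig 5 the count was 5, without HS pig 2 it was 3, and without HS pig 1 the median was 0.15. Its median was -0.01 in Large White pigs and 0.04 in the cross.

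Lymphocyte genes were higher in HS pigs for 14 of 16 members, with a median of 0.12 and 0 at an unadjusted p under 0.05, a count that was 6 without TN pig 6. GZMH, a protease of cytotoxic lymphocytes that is not on that list, was the highest gene of those with at least 2 probes in 1 direction and an unadjusted p under 0.05. It differed by 0.68 with an SE of 0.24 (unadjusted p = 0.0141, adjusted p = 0.997 in limma). Its TN pigs stood between 6.65 and 7.87 and its HS pigs between 7.40 and 8.46. In Large White pigs GZMH differed by -0.19 and in the cross by -0.16, and the Creole difference minus their mean was 0.86 (unadjusted p = 0.00707). Macrophage genes had 9 of 16 members lower and a median of -0.02. Without TN pig 6 the median was 0.04 with 4 lower, without TN pig 2 it was -0.08 with 14 lower, and with slide as a fixed block it was -0.13, so that no direction is given for them.

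**Figure D4:**
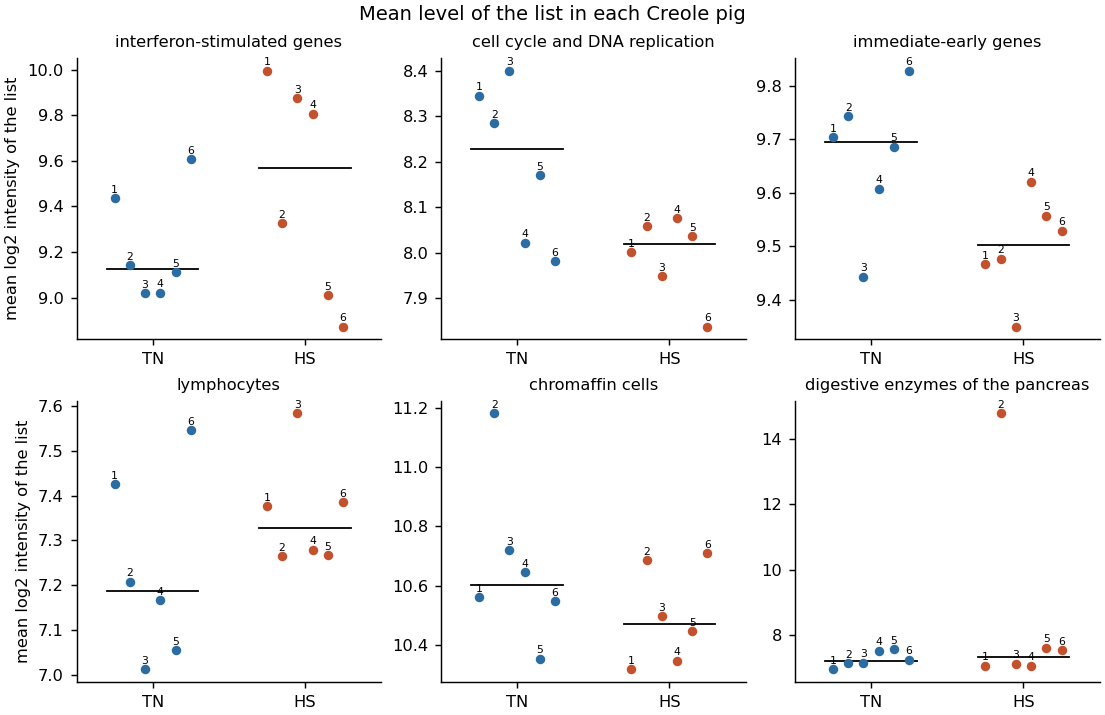
Mean level over 6 gene lists (log2, vertical axis) in each Creole pig, numbered, with a line at the median of each group. HS pigs 1, 3 and 4 stand above the TN pigs for interferon genes, HS pig 2 stands alone at 14.77 for digestive enzymes of the pancreas, and the other lists overlap between groups.

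NPY, a neuropeptide of chromaffin cells and sympathetic nerves, had the largest difference of all genes. It stood at 8.63, 13.79, 11.30, 10.59, 9.17 and 12.35 in TN pigs 1 to 6 and at 8.43, 10.47, 7.43, 6.95, 7.47 and 7.34 in HS pigs 1 to 6. All 6 TN pigs lay above the HS pigs other than HS pig 2, which lay above TN pigs 1 and 5. The difference was -2.96 with an SE of 0.84 (unadjusted p = 0.00379, adjusted p = 0.997 in limma), and the SD was 1.94 in TN and 1.30 in HS pigs. Both probes gave nearly the same, at -3.00 and -2.92. Within slides 2 to 5 it was -0.75, -3.52, -2.22 and -4.95, and with slide as a block -2.90. Without TN pig 2 it was -2.39 and without HS pig 2 it was -3.45.

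In Large White pigs NPY differed by -0.59 and in the cross by 0.25, and the Creole difference minus their mean was -2.79 (unadjusted p = 0.0309 in limma). The list of chromaffin genes, which includes NPY, differed far less than NPY at its median. Of 25 measured genes of that list 17 were lower, with a median of -0.06, and without TN pig 2 the median was 0.01. CHGA and CHGB, of the secretory granules, differed by -0.03 and -0.07, DBH, which makes noradrenaline, by -0.15 and PNMT, which makes adrenaline, by -0.19.

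Some other genes were, like NPY, highest in TN pig 2, and they were put together after their values were seen. NMB, the neuropeptide neuromedin B, differed by -1.27 and SNCG, a synuclein, by -0.78. The intermediate filament gene PRPH differed by -1.69 and the G protein subunit gene GNG3 by -1.07. TN pig 2 was the highest of the 12 pigs for all of these, and also for PPBP, a chemokine of platelets, at 7.75 where the other TN pigs lay between 5.40 and 6.21. Without TN pig 2, NMB differed by -0.99, SNCG by -0.51 and PPBP by -0.39. With the processed signal at the 75th percentile, SNCG differed by -1.58 and PPBP by -1.78. No probe of SNCG was well above background on more than 9 of the 12 arrays, and none of PPBP on more than 11. Other genes that neurons express did not share this pattern, since the neuropeptide gene ADCYAP1 (8.06) and the enolase gene ENO2 (14.37) were highest in TN pig 6 and the synaptic gene SNAP25 (6.41) in HS pig 2. The mean over the chromaffin list, which includes NPY, was highest in TN pig 2 as well. It stood at 11.18 there, where the other Creole pigs lay between 10.32 and 10.72. The part of TN pig 2 in these differences was not tested.

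Other genes without overlap had smaller differences than AREG. Below the TN pigs were AQP7 (-0.32), a channel for water and glycerol, PIGA (-0.25), MLLT11 (-0.24) and ZC2HC1A (-0.12), and above them were PTPN18 (0.39), a phosphatase, PAEP (0.29), TMEM139 (0.27), YPEL2 (0.25), HPS6 (0.23), NPY2R (0.21), a receptor of NPY, SPR (0.19), LIG4 (0.18), a ligase of DNA repair, N4BP2L1 (0.17), LONRF1 (0.16), NUCB2 (0.16), PDCD4 (0.13) and SAMHD1 (0.12). PTPN18 rests on 1 sequence, since its 2 probes are identical.

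The other lists stood close to the background. Energy and protein upkeep gave medians of -0.01 for 38 proteasome subunits, 0.04 for 38 antioxidant genes, 0.02 for 39 genes of glycolysis and the citric acid cycle, 0.00 for 62 genes of oxidative phosphorylation and -0.03 for 71 cytosolic ribosomal proteins, of which 50 were lower (65 with median centring and 42 without TN pig 2). Signals to the cortex gave 0.00 for 19 genes of the ACTH receptor and cAMP and -0.01 for 12 genes of the angiotensin receptor and ion channels, where CREB1 differed by -0.14. The circadian clock gave 0.06 over 19 genes, and its member BHLHE40, a repressor that glucocorticoids and stress also act on, differed by -0.51 with an SE of 0.16 (unadjusted p = 0.00683 in limma). Markers of other cell types gave -0.04 for 23 adipocyte genes, -0.04 for 8 red blood cell genes, 0.04 for 19 endothelial genes, -0.05 for 26 genes of collagens and stroma, 0.00 for 21 muscle genes and -0.15 for 3 kidney genes.

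Genes that were higher by the rule on probes included CYP3A46, a cytochrome of steroid and drug oxidation, at 0.66 with an SE of 0.18 (unadjusted p = 0.00312 in limma). Its 3 probes read separate stretches and lay between 0.52 and 0.88, at levels of 5.58 to 6.47 in TN and 6.02 to 6.85 in HS pigs. Its difference was 1.46 with the processed signal at the 75th percentile and 0.46 with normexp background correction. CYP3A46 differed by -0.10 in Large White pigs and by 0.06 in the cross, and the Creole difference minus their mean was 0.67 (unadjusted p = 0.000254, adjusted p = 0.993). ADPRH, which removes ADP-ribose from proteins, differed by 0.38 (SE 0.09, unadjusted p = 0.00128), with all 7 probes between 0.33 and 0.51. RNASE10 differed by 0.59, CHMP4C, of membrane scission, by 0.53, C4H8orf37 by 0.48, FAM13C by 0.44, XIRP1, of muscle, by 0.37 and TRUB1, which modifies RNA, by 0.36 (0.58 with the processed signal at the 75th percentile). The 3 probes of XIRP1 gave 0.00, 0.52 and 0.60, and its brightest probe alone gave 0.002 (unadjusted p = 0.984 in limma). HS pig 1 stood apart from the other HS pigs for CHMP4C, at 9.70 against 10.68 to 10.89.

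Genes that were lower by the same rule included LMO1, a transcription cofactor, at -0.75, APOE, the apolipoprotein, at -0.61 and FBXW7, a subunit of a ubiquitin ligase, at -0.59. APOE had SDs of 0.68 in TN and 0.24 in HS pigs, with TN pigs 2 and 6 highest. LMO1 differed by -0.02 in Large White pigs and -0.01 in the cross, and the Creole difference minus their mean was -0.73 (unadjusted p = 0.0264 in limma). EHF and ANKRD2, which earlier results over all breeds had named, differed by -0.50 with an SE of 0.32 and by 0.50 with an SE of 0.34, and by -0.22 without TN pig 5 and 0.24 without TN pig 2. SESN1, a stress gene of the p53 pathway, differed by 0.22 with an SE of 0.10, and by 0.14 without TN pig 5. Among genes with at least 2 probes in 1 direction and an unadjusted p under 0.05 for that contrast in limma, those furthest from the other breeds were NPY, CD5L, PON1, GZMH, GUSB and LMO1. CD5L, a protein of macrophages, differed by 0.62 in Creole pigs (0.39 without TN pig 6) and by -0.43 in each of the others. PON1, a lipoprotein esterase, differed by -0.41 against 0.07 in Large White pigs and 0.93 in the cross, and in Creole pigs its brightest probe gave -0.21 and the processed signal at the 75th percentile -0.68. GUSB, a lysosomal enzyme, differed by 0.19 through HS pig 4, at 12.81 where the other HS pigs lay between 10.89 and 11.23, and by -0.11 without it.

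Probes of the same gene mostly had the same direction where the difference was large, and less often where it was small. Of 5449 genes with at least 2 probes, all probes had 1 direction in 3295 (60.5%). Among genes with a difference over 0.1 this held for 1355 of 1469 (92.2%), over 0.25 for 274 of 281 (97.5%) and over 0.5 for 46 of 47 (97.9%). Since the size is the mean of the same probes, a large mean favours 1 direction. Among the 231 of these genes with an unadjusted p under 0.05 it held for 223 (96.5%).

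Agreement differed with what the probes share, and so did the gap in level between the probes of a pair. The median gap was 0.14 for identical sequence, 0.33 with a shared run on the same strand and 1.51 with no shared run. The part of each in the agreement was not tested. Pairs of identical sequence (991 pairs of 853 genes) had the same direction in 82.2%, with a median disagreement of 0.03, which is how far copies of 1 sequence lay apart. Pairs that share a run of at least 15 bases had the same direction in 82.0% of 3304, and pairs with no shared run in 73.1% of 28694, with a median disagreement of 0.05. Counting probes with a shared run once left 4877 genes with at least 2 separate stretches, of which 61.1% had 1 direction, and 197 of 203 (97.0%) of those with an unadjusted p under 0.05.

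A small set of 67 pairs in 56 genes share a run on opposite strands, so that 1 probe of each pair reads the reverse strand. They had the same direction in 32 of 67 pairs (47.8%). The brighter probe of a pair had a median level of 11.87 and the dimmer 6.72. A gene's mean over such probes mixes both.

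**Figure D5:**
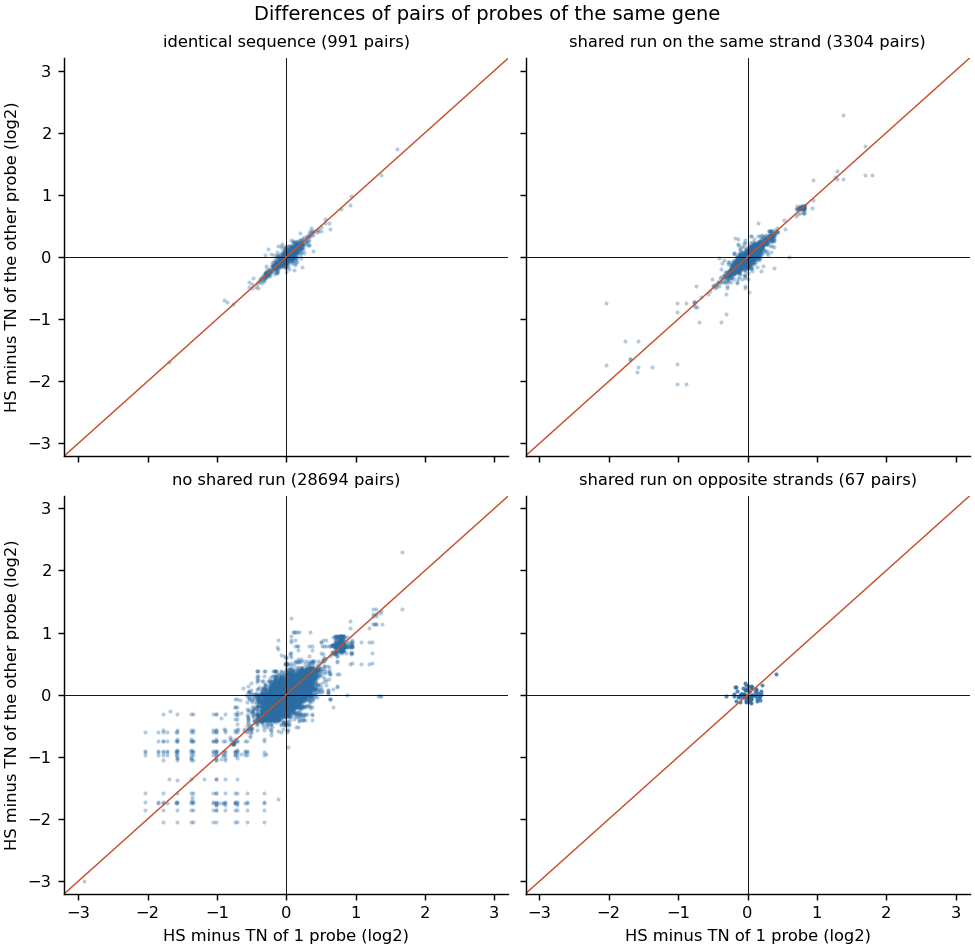
HS minus TN of 1 probe against that of another probe of the same gene (log2, both axes) in Creole pigs, in 4 panels by what the pair shares. Identical probes lie close to the diagonal, pairs with no shared run scatter more, and pairs on opposite strands show little relation.

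Pairs with a large difference came from few genes. Of 833 pairs in which 1 probe differed by more than 0.5, 231 were of MYOT and 253 of AMY2, the pancreatic amylase, which was high in HS pig 2. All pairs gave 96.4% in the same direction, and the 349 pairs of the other 99 genes gave 91.4%. Among genes with a probe at an unadjusted p under 0.05, disagreement was large in LALBA, CALCR and PEBP4. The probes of LALBA, the milk protein alpha-lactalbumin, lay between -0.11 and 0.88. CALCR, the calcitonin receptor, had probes at 0.03 and -0.84. PEBP4 had probes at -0.11 and 0.74, and its brighter probe was the lower.

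The Creole differences were set beside those of the other breeds as a description, since genes are not independent replicates. Over all 10406 genes, 56.3% had the same direction in Large White pigs and 56.8% in the cross. For the 223 genes with probes in 1 direction and an unadjusted p under 0.05 this was 77.1% and 76.2%. Among the 12 lowest of these, 11 had the same direction in Large White pigs and 11 in the cross, and among the 12 highest, 8 and 11. The test of the difference itself, Creole against the mean of the others, passed an adjusted p of 0.05 for 0 of 45348 probes (0%) and 0 of 10406 genes (0%) in limma. At an unadjusted p under 0.05 it gave 1952 probes (4.3%) and 417 genes (4.01%), with lowest adjusted p-values of 0.994 and 0.993.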

How the data were processed

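RNA of the adrenal glands was labelled with Cy3 and hybridised to a 1-colour porcine array, and the authors extracted spot intensities with Agilent Feature Extraction 10.10.1.1. The deposited table holds the authors' log2 values of 45348 probes after quantile normalization of the median pixel intensity, and it was used as given, with 25 missing values in the Creole arrays. The deposited scanner files hold each spot's intensity, from which the same step gave values that differed by a median of 0.00698. They gave the flags, the slides, the probe sequences and the annotation, with 0 saturated probes in the table. Accessions and older symbols were matched to RefSeq Sscrofa11.1.

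HS was compared with TN in the 12 Creole arrays with limma 3.58.1 (lmFit and eBayes) in R 4.3.3, on probes and on the mean over the probes of a gene, with Benjamini-Hochberg adjustment over all of them and a threshold of 0.05. The difference from the other breeds was a contrast in a fit of all 36 arrays. The study's random effects of pen, day of slaughter and parents could not be fitted. The number of arrays limits the precision. The fits were tested on simulated data.

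Named genes were those past the threshold (0), the 12 highest and 12 lowest with at least 2 probes in 1 direction and an unadjusted p under 0.05, 10 genes named by the study or by earlier results, up to 4 genes of each of 30 lists by lowest p, the 4 with the widest spread between probes at an unadjusted p under 0.05, and the 6 that differed most from the other breeds. Of the genes this rule selects, 3 are not reported here. Other genes were named as members of a list or after their values were seen. The members, lists and rules were chosen with earlier results of these data known, and the list of pancreas genes after the largest differences had been seen. Alternatives were other normalizations, background corrections and filters, slide as a block, a spread shared by all arrays, array weights, another variance prior, other ways to join the probes of a gene, and each pig left out. Averaging probes that share a run first was chosen after seeing the data.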

Additional observations from a re-analysis of the deposited data

Results flagged for a closer look

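For 350 groups of 6 Creole pigs (TN or HS, for a named gene, a list or the pancreas genes), the gap of the highest or lowest pig to its neighbour was divided by the range of the group, and 13 (3.71%) lay above the critical value of 0.625, where chance gives about 1 in 20 groups. HS pig 2 was far above the others for the mean of the pancreatic enzyme genes (0.929) and was the highest HS pig for PPBP (0.653). HS pig 6 was the highest HS pig for HSPH1 (0.69), DNAJB1 (0.686) and the mean of the HSP70 and HSP110 chaperones (0.766). HS pig 1 was the lowest HS pig for CHMP4C (0.828) and the highest for INHBA (0.695). HS pig 4 was the highest for GUSB (0.824) and HS pig 5 the lowest for NR5A1 (0.626).

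Among the TN pigs, pig 2 was the highest for PPBP (0.654) and the lowest for HSPE1 (0.625). TN pig 5 was the highest for IER3 (0.675) and the lowest for MGLL (0.637).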

How the results depend on the processing

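No paired analysis was possible because the replicate numbers follow the order of accession and the labels pair no pigs. Under every alternative 0 probes passed an adjusted p of 0.05. For genes the count past it was 0 under every alternative but 1, and with each pig left out in turn it lay between 0 and 1, the 1 being EGR1 without TN pig 3 (-0.86, adjusted p = 0.0145). The lowest adjusted p for genes was 0.209 when all 36 arrays shared the spread, and the count at an unadjusted p under 0.05 lay between 332 and 588 genes and between 1388 and 2600 probes, the highest with slide as a fixed block. The contrast with the other breeds was computed under 5 alternatives (scanner median intensity, slide as a fixed block, Large White alone, the cross alone, and without HS pig 6) and gave 0 past an adjusted p of 0.05 under each, with a lowest adjusted p over probes of 0.0561 with slide as a fixed block.

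Among the genes selected by the rule for named genes, 10 values changed sign or came to 0. PEBP4 was -0.113 with probes well above background on all Creole arrays and with the brightest probe alone. The brightest probe gave -0.011 for PPARG, 0.005 for SPARC, -0.003 for PSMB2 and 0 for RPS19, and the median over probes gave -0.022 for LALBA. ANGPT1 was 0.004 with slide as a fixed block, CSF1R 0.013 without TN pig 6 and GUSB -0.108 without HS pig 4, and with each pig left out in turn CSF1R lay between -0.179 and 0.013 and GUSB between -0.108 and 0.275. The causes were not tested. The medians of the cell cycle and interferon lists kept their direction under every alternative and were -0.27 and 0.30 with the processed signal at the 75th percentile. Over 24 alternatives, the medians of 15 of the 30 lists took both signs, all of them within 0.06 of 0 as reported. The chromaffin median turned to 0.02 with slide as a fixed block and to 0.01 without TN pig 2.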

Other observations

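DLL3, a Notch ligand with 1 probe, stood between 14.23 and 15.41 in TN pigs. HS pigs 1 to 4 stood at 11.15, 11.89, 11.80 and 12.30, and HS pigs 5 and 6 at 15.61 and 14.68. DLL3 differed by -1.80 in Creole pigs (unadjusted p = 0.0188 in limma), by 0.87 in Large White pigs and by 0.41 in the cross, and the Creole difference minus the mean of the others was -2.44 (unadjusted p = 0.00710, adjusted p = 0.996 in limma). MYOT, a muscle protein read by 22 probes, stood between 7.34 and 9.39 in TN pigs 1 to 5 and at 5.12 in TN pig 6, and in HS pigs at 5.18, 8.45, 7.53, 8.54, 5.16 and 5.30.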
